A study of Mus musculus with 4 samples.

Results

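The genes described here are the claudins (symbols Cldn and a number), the connexins (Gja to Gje and a number) and the cadherins named Cdh and a number, chosen by their symbols in gene lists from sorted fetal mouse pancreas. Of 29653 genes in any list, 66 carried such a symbol. The mouse annotation, GENCODE M21, holds 76, all of them protein-coding, so 10 were in no list. By family there were 33 claudins, 20 connexins and 23 cadherins. The symbol rule is wider than the classical cadherins: it also takes in Cdh13, which lacks the usual cytoplasmic tail, the 7D cadherins Cdh16 and Cdh17, and Cdh23 of the inner ear.

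Claudins are membrane proteins that seal tight junctions, the belts that close the space between epithelial cells, and some of them form ion pores there. Connexins assemble into gap junction channels that let ions and small molecules pass from cell to cell. Cadherins hold cells together at adherens junctions by binding the same cadherin on the next cell, with catenins linking them to the actin skeleton. In the pancreas E-cadherin (Cdh1) joins the epithelium, Cx32 (Gjb1) and Cx26 (Gjb2) couple acinar cells, and Cx36 (Gjd2) couples beta cells.

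Pancreata of C57BL/6 embryos were dissociated, labelled for the epithelial surface protein EpCAM and flow-sorted, and each of the 4 groups gave 1 single-cell RNA library. The WT groups, of embryonic days E13.5 and E15.5, were Setd2 f/f without Cre, and the KO groups, of the same ages, were PdxcreSetd2 f/f, so both alleles were floxed in every group. Pdxcre is a recombinase under a Pdx promoter, active in pancreatic epithelium. Setd2 encodes the enzyme behind the histone mark H3K36me3. Neither the number of embryos in a library nor the fraction kept at the sort is given in the sources used here.

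The value available for each gene is whether it was listed for a library. Levels, cells and counts were not analysed here, so depth is unknown and a gene off a list may still be expressed. The 3 complete lists have 25463 genes (E13.5 WT), 26341 (KO of that age) and 25474 (E15.5 KO), and member counts below keep this order. For E15.5 WT the list breaks off after 167 complete entries and covers 2 of the annotated members. With 1 library in each group there is no replicate check, no difference below could be tested, and library and group cannot be told apart. Of 10 pancreatic epithelial markers, among them Epcam, Pdx1, Sox9 and Ptf1a, all 10 were in each complete list. Markers of other cells were there too: all 8 immune and all 6 mesothelium markers were in each complete list. Of 13 endothelial markers 12, 12 and 10 were listed, and of 14 neural crest and glia markers 14, 14 and 11. Listing alone therefore cannot check the labelled tissue.

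Of the 76 members, 64 (84.2%) were in E13.5 WT, 56 (73.7%) in the KO of that age and 54 (71.1%) in E15.5 KO. Over all annotated protein-coding genes the same lists held 77.7%, 77.9% and 75.9%. Pooled over the 76, the E13.5 WT share lay above that background and both KO shares below it. The families did not all follow: claudins stood at 72.7%, 60.6% and 54.5%, connexins at 85%, 75% and 75%, and cadherins at 100%, 91.3% and 91.3%. All 3 complete lists shared 50 of the 66 listed members (75.8%), against 89.4% of the 17949 protein-coding genes in any of them. The remaining 16 fell into 4 patterns. In E13.5 WT only there were 8 (12.1%, background 1.93%), and in both E13.5 lists 4 (6.06%, background 3.09%). In E13.5 WT and E15.5 KO there were 2 (3.03%, background 0.93%), and in both KO lists 2 (3.03%, background 1.28%). No member (0) was in 1 KO list alone, a pattern that 1.84% (E13.5) and 1.57% (E15.5) of protein-coding genes had. The members were chosen with these listings known, so nothing is drawn from the gaps.

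**Figure D1:**
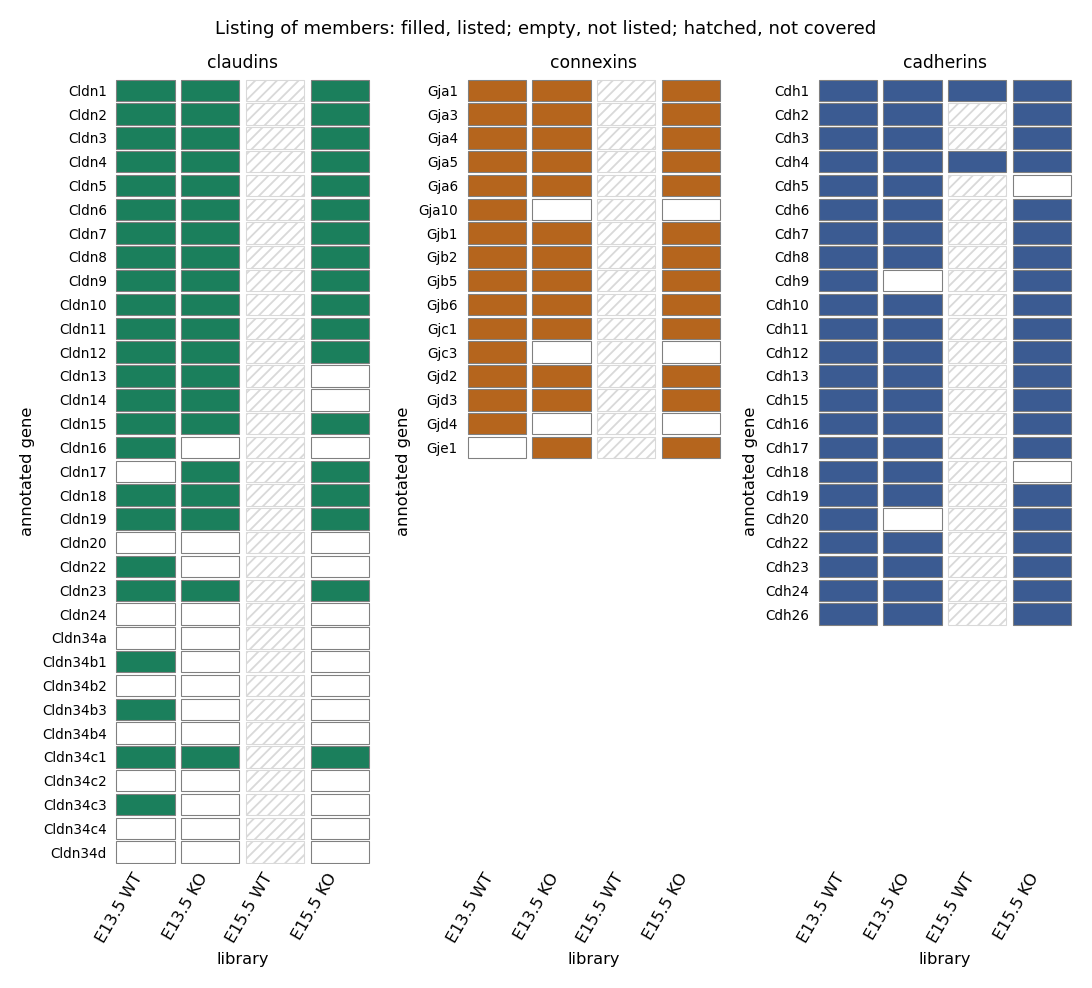
Annotated claudins, connexins and cadherins (rows; some connexins are not shown) in each library (columns): a filled box is listed, an empty box is not listed, and a hatched box is not covered by the broken-off E15.5 WT list. In the complete lists the cadherin column is nearly filled. The lower claudins, Cldn20 to Cldn34d, are mostly empty in each complete list, with more of them filled in E13.5 WT than in either KO list.

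Members were also sorted by the tissue each is best known from, a grouping made from general knowledge. Among these classes the epithelial members had the most even share over the lists. Of 28 epithelial members 26, 26 and 25 were listed (92.9%, 92.9% and 89.3%). Annotated protein-coding genes were even too, at 77.7%, 77.9% and 75.9%, so evenness is not particular to epithelial members. The equal E13.5 counts are a net: of those lists Cldn16 was in WT only and Cldn17 in KO only. Of 18 neural members 18 were in E13.5 WT, 14 in the KO of that age and 15 in E15.5 KO. The 5 vascular members were all in both E13.5 lists, and 4 were in E15.5 KO. The 10 members of other tissues (lens, muscle, testis, mesenchyme, blood or widespread) had 8, 8 and 7 listed. The 15 left without a tissue, 10 of them Cldn34 genes, had 7, 3 and 3 listed.

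**Figure D2:**
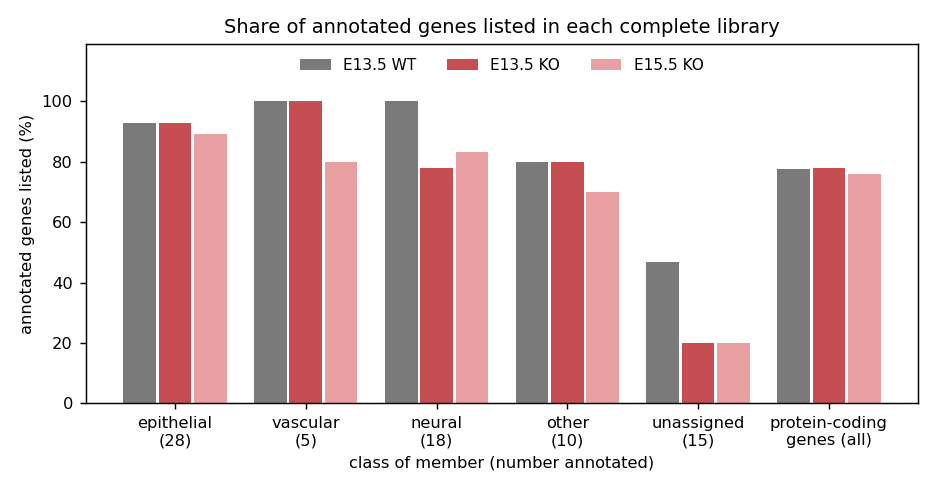
Share of annotated members listed (y axis, percent) by tissue class, with the number annotated in brackets, in E13.5 WT (grey), in E13.5 KO (red) and E15.5 KO (pink); all protein-coding genes stand at the right. Epithelial members lie between 89.3% and 92.9% in each library, and neural members at 100% in E13.5 WT, 77.8% in the KO of that age and 83.3% in E15.5 KO.

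Among the claudins, 17 of 33 were in every complete list. The barrier-forming claudins Cldn1, Cldn3, Cldn4, Cldn7 and Cldn8, and Cldn6 of the embryonic epithelium, were among them. The pore formers Cldn2, Cldn10 and Cldn15 were listed throughout as well, as was Cldn18, the claudin of stomach and lung. Cldn12, Cldn19, Cldn23 and Cldn9, the last known from the inner ear, had the same pattern. Cldn5, which seals blood vessels, and Cldn11, which seals myelin and the testis barrier, were also in all 3. These 2 are the claudins of the vascular and neural classes, so the shared claudins were not only epithelial.

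Epithelial claudins that differed were 3 of 17. Cldn16 (ENSMUSG00000038148, chromosome 16, 26463135 to 26482765), which works in magnesium reabsorption, was in E13.5 WT and in neither KO list. Cldn14 (ENSMUSG00000047109, chromosome 16, 93919031 to 94008837), of inner ear and kidney, was in both E13.5 lists and not in E15.5 KO. Cldn17 (ENSMUSG00000055811, chromosome 16, 88505807 to 88506978), an anion pore former, went the other way: it was in both KO lists and not in E13.5 WT. Cldn8, its neighbour 53849 bases away, was in all 3.

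Cldn13 (ENSMUSG00000008843, chromosome 5, 134914249 to 134915526), a rodent claudin of blood-forming tissue, was in both E13.5 lists and not in E15.5 KO. Its neighbours Cldn4, 29592 bases away, and Cldn3 were in all 3. Of 10 erythroid markers 10 were in each E13.5 list and 8 in E15.5 KO, where Gata1 and the embryonic globin Hbb-bh1 were not listed. Whether blood cells had a part in the listing of Cldn13 was not tested. The lists are totals over the cells of a library, so fewer cells of a type and less RNA per cell cannot be told apart.

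Cldn22 (ENSMUSG00000038064, chromosome 8, 47824482 to 47825476) was in E13.5 WT only, and its neighbour Cldn24, 1676 bases away, was in no list. Cldn22 lies opposite Wwc2, a gene listed in all 3 lists. Every 60-base window of the Cldn22 transcript (100%) occurs on the other strand in a Wwc2 transcript, and 68.4% of those of Cldn24 do. Without strand, reads of Cldn22 and Wwc2 cannot be told apart. On the same strand, 44.1% of the Cldn22 windows and 68.4% of the Cldn24 windows also occur in a transcript of another gene. Strand alone would therefore not settle the listing of either. Cldn20 was in no list.

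The Cldn34 genes, 10 copies on the X chromosome, account for most of the claudin listings that are missing. Cldn34c1 (ENSMUSG00000079450, X chromosome, 123103495 to 123188795) was in all 3 complete lists. Cldn34b1, Cldn34b3 and Cldn34c3 were in E13.5 WT only. The other 6, Cldn34a, Cldn34b2, Cldn34b4, Cldn34c2, Cldn34c4 and Cldn34d, were in none. Of the 10 copies 6 share sequence with another: 90.7% of the 60-base windows of Cldn34c2 also occur in Cldn34c1, 63.9% of those of Cldn34c3 occur in Cldn34c2, and 33% of those of Cldn34b1 occur in Cldn34b2. A listing of one of these 6 is uncertain for that reason. Cldn34a, Cldn34b4, Cldn34c4 and Cldn34d, all unlisted, share no window with another gene. Of the other 23 claudins, 20, 19 and 17 were listed.

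Among the connexins, 14 of 20 were in every complete list. The widespread Cx43 (Gja1) and Cx45 (Gjc1) were among them, as were Gjb1 and Gjb2 of acinar cells and Gjd2 of beta cells and neurons. The epithelial and skin connexins Gjb5 and Gjb6 were listed throughout. Gja4 and Gja5, the connexins of arterial endothelium, were in all 3 lists. Gja3 of the lens, Gja6 of the testis and Gjd3 were too.

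The connexins in E13.5 WT only were 3. Each has a narrow known site, but so do Gja3 and Gja6, which were in all 3 complete lists. Gja10 (ENSMUSG00000051056, chromosome 4, 32596960 to 32602760) encodes Cx57 of retinal horizontal cells. Gjc3 (ENSMUSG00000056966, chromosome 5, 137953461 to 137963098) encodes Cx29 of myelinating glia. Gjd4 (ENSMUSG00000036855, chromosome 18, 9278607 to 9282809) encodes Cx39 of developing muscle. Beside Gjc3, the glial markers Sox10 and Erbb3 were in all 3 complete lists. Beside Gjd4, 6, 6 and 4 of 8 skeletal muscle markers were listed. Of these Myf6 was in E13.5 WT only, Pax7 in both KO lists, Myod1 and Myog in both E13.5 lists, Acta1, Actn2 and Ttn in all 3, and Myf5 in no complete list. The part of glia or muscle cells in these listings was not tested.

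Gje1 (ENSMUSG00000019867, chromosome 10, 14715623 to 14718214), the Cx23 gene of the lens, was in both KO lists and not in E13.5 WT. It lies within the span of Nmbr, a neuromedin B receptor gene on the opposite strand, which had the same pattern. No exon of Gje1 overlapped an exon of Nmbr in the annotation. Whether counting took in introns or used the strand is not given in the sources used here, so their listings may not be independent.

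The cadherins were the most completely listed family, with 23, 21 and 21 of 23 listed and 19 in all 3. Cdh1 (ENSMUSG00000000303, chromosome 8, 106603351 to 106670246), E-cadherin, was in all 4 lists, E15.5 WT included. Cdh4, R-cadherin (ENSMUSG00000000305, chromosome 2, 179442431 to 179899373), first known from the retina, was also in all 4, so neither of the members that E15.5 WT covers differed between genotypes at either age. The other epithelial cadherins, Cdh3 (P-cadherin), Cdh16 of the kidney, Cdh17 of the intestine and Cdh26, were in the 3 complete lists. The same held for Cdh2 (N-cadherin), Cdh11 of mesenchyme, Cdh13 (T-cadherin) of vessels and heart, Cdh15 of muscle, Cdh19 of glia and the longest in coding sequence, Cdh23. Cdh6, Cdh7, Cdh8, Cdh10, Cdh12 and Cdh22, known from the nervous system, and Cdh24 completed the 19.

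The 4 cadherins that differed were Cdh5, Cdh18, Cdh9 and Cdh20. Cdh5 (ENSMUSG00000031871, chromosome 8, 104101625 to 104144511), VE-cadherin of endothelial junctions, was in both E13.5 lists and not in E15.5 KO. The endothelial markers Tie1, Sox18 and Robo4, and the vascular protocadherin Pcdh12, had the same pattern as Cdh5. Sox17 was in E15.5 KO only, and Pecam1, Kdr, Tek, Esam, Emcn, Egfl7, Plvap, Flt1 and Erg were in all 3, as were Cldn5, Gja4 and Gja5. The part of endothelial cell number in the listing of Cdh5 was not tested.

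Cdh18 (ENSMUSG00000040420, chromosome 15, 22549022 to 23474418) had the pattern of Cdh5. Cdh9 (ENSMUSG00000025370, chromosome 15, 16728756 to 16857094) and Cdh20 (ENSMUSG00000050840, chromosome 1, 104768529 to 104995481) were in E13.5 WT and E15.5 KO and not in E13.5 KO. These 3 are cadherins of neurons. Of 14 neural crest and glia markers 14, 14 and 11 were listed, and Foxd3 and Dbh were among those not in E15.5 KO. The part of neural cells in the listing of these 3 cadherins was not tested. All 4 that differed have 11 coding exons, a structure that 13 of the 23 cadherins have. The 4 with 16 coding exons, Cdh1, Cdh2, Cdh3 and Cdh4, were in all 3 complete lists.

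The genotype comparison at E13.5 asks which junction genes the KO and WT libraries of that age held. Of 66 members in either list, 12 (18.2%) were in 1 list only, against 6.08% of protein-coding genes and 16.3% of all genes. In E13.5 WT only there were 10 (15.2%), against 2.91% of protein-coding genes and 6.61% of all genes. These 10 were Cldn16, Cldn22, Cldn34b1, Cldn34b3, Cldn34c3, Gja10, Gjc3, Gjd4, Cdh9 and Cdh20. In E13.5 KO only there were 2 (3.03%), Cldn17 and Gje1, against 3.17% and 9.72%. The 2 in KO only lie near the protein-coding background, and the 10 in WT only lie above it. Without the Cldn34 genes 7 were in E13.5 WT only and 2 in E13.5 KO only.

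Between the ages in the KO, 6 of 58 members in either list (10.3%) were in 1 list only, against 7.57% of protein-coding genes and 17.8% of all genes. In E13.5 KO only there were 4 (6.9%), Cldn13, Cldn14, Cdh5 and Cdh18, against 5.03% of protein-coding genes and 10.4% of all genes. In E15.5 KO only there were 2 (3.45%), Cdh9 and Cdh20, against 2.55% and 7.37%. Both shares lie near the protein-coding background. All 4 members of the first set were in E13.5 WT too, and so were both of the second.

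E15.5 KO and E13.5 WT differ in age and genotype together. Of 66 members in either list 14 (21.2%) were in 1 list only, against 8.01% of protein-coding genes and 18.6% of all genes. In E13.5 WT only there were 12 (18.2%), against 5.11% and 9.27%. In E15.5 KO only there were 2 (3.03%), Cldn17 and Gje1, against 2.89% and 9.31%. The 12 were the 8 members that E13.5 WT alone held, with Cldn13, Cldn14, Cdh5 and Cdh18. The 3 comparisons share lists, and the 8 members count in both that include E13.5 WT. Because E15.5 WT covers none of the 8, genotype and this 1 library cannot be told apart.

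**Figure D3:**
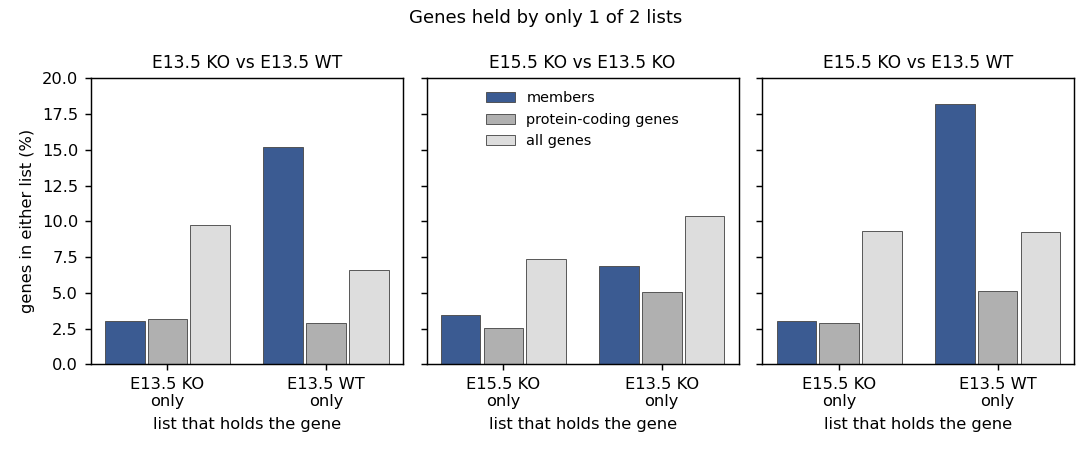
Share of genes in either list (y axis, percent) that only the list named on the x axis held, for the members (blue), protein-coding genes (grey) and all genes (light grey), in 3 pairs of complete lists. The members' bars for E13.5 WT only, 15.2% and 18.2%, are above the grey bars of 2.91% and 5.11%; the other member bars are within 2 percentage points of the grey ones.

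Of the partner, relative and regulator genes below, 93 were in any complete list and 88 of those were in all 3. Of protein-coding genes in any complete list 89.4% were in all 3, so wide listing is not particular to these genes. All 24 tight junction partners, among them Tjp1, Ocln and F11r, and all 14 adherens junction partners, among them Ctnnb1, Ctnna1 and Ctnnd1, were in each complete list. So were the 12 regulators of epithelial junction genes, among them Snai1, Zeb1, Grhl2 and Ovol2. Of 14 desmosome genes 10, 9 and 9 were listed. Dsg3, the desmoglein of stratified epithelium, was not in E13.5 KO, Pkp1 was not in E15.5 KO, and Dsg1a, Dsg1b, Dsg4 and Dsc1, known from the epidermis, were in none. Of the 3 pannexins, channel proteins related in shape to connexins, Panx3 was in E13.5 WT only. Of 30 other cadherin superfamily genes 28 were in all 3, and the exceptions were Dchs2, not in E13.5 KO, and Pcdh12. The near-named genes just outside the symbol rule, Cdhr1 to Cdhr5, Cldnd1 and Cldnd2, were in all 3, and the pseudogenes Cldn25-ps and Cldn34-ps were in none.

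The pooled order of gene spans followed listing, but the order within families did not. The 50 members in all 3 lists had a median span of 19.8 kb, the 16 in 1 or 2 lists 7.72 kb and the 10 in none 4.06 kb. Over all protein-coding genes these medians were 23.6, 10.8 and 5.86 kb, the same order. Within families the medians were 7.03, 3.45 and 4.06 kb for claudins and 6.87, 5 and 7.73 kb for connexins. For cadherins they were 145 kb in all 3 lists and 178 kb in 2 lists. Single coding exons did not separate the first 2 groups: of the 50, 21 had a single coding exon, of the 16, 6 did, and of the 10, 9 did. Among protein-coding genes a single coding exon was found in 7.38%, 20.4% and 49.5%. The cadherins, with at least 11 coding exons each, and the claudins and connexins, many of them with 1, therefore differ in structure as well as in listing. Of 13 pairs of members next to each other within 100 kb, 6 had the same pattern, such as Cdh3 with Cdh1 and Cldn6 with Cldn9. In all 6 both members were in all 3 lists, the pattern of 50 of the 66 listed members. No share for members lying apart was computed, so nothing is drawn from these pairs. Exons of 8 members overlap another gene: beside Cldn22 these are Cldn3, Cldn19, Cdh8, Cdh9, Cdh12, Gja5 and Gjd2. Gjd2 overlaps A530058N18Rik on the opposite strand, which had 1 identifier in all 3 complete lists and another in E15.5 KO only. No 60-base window of another gene's transcript was found in 60 of the 76 members, and Gja5 shared 12.9% of its windows with Zfp697.

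Promoter sequence was available for 50 of the 76 members. CpG pairs, the C-G steps that crowd the promoters of broadly expressed genes, were counted in the 250 bases before the RefSeq start, taking the richest promoter of a gene. The 34 members in all 3 lists had a median of 9 (0 to 33), the 10 in 1 or 2 lists 4.5 (0 to 10) and the 6 in none, all claudins, 1.5 (0 to 4). Over all protein-coding genes the medians were 15, 3 and 1, so the order is not particular to these families. Among the cadherins alone the medians were 6.5 for 10 members in all 3 lists and 8 for the 3 in 2 lists, which is not that order. Cdh26 with 0 CpG and Cdh10 with 2 were in all 3 lists. The promoters below are extremes of each family picked by their CpG count, so the difference within a pair comes from the choice. Each pair is the member in all 3 lists with most CpG, then the member in 1 or 2 lists with fewest. Only genes whose window has at most 30 bases in an annotated exon were eligible. The cadherin pair runs against the medians of its family. They are from RefSeq on GRCm38.p6, with each CpG in capitals.
Cldn34c1, chrX:123103273-123103522, plus strand, 22 CpG: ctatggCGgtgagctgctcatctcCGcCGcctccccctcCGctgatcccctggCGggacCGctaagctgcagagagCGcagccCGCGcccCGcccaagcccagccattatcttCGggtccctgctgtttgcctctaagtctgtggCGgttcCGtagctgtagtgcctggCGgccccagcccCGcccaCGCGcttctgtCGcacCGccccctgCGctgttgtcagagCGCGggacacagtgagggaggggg
Cldn34c3, chrX:123811137-123811386, plus strand, 0 CpG: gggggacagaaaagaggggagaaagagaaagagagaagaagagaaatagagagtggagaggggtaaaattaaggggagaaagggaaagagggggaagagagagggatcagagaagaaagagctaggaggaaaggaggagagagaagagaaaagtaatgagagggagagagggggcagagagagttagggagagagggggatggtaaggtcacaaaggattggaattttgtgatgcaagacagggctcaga
Gjd2, chr2:114013620-114013869, minus strand, 33 CpG: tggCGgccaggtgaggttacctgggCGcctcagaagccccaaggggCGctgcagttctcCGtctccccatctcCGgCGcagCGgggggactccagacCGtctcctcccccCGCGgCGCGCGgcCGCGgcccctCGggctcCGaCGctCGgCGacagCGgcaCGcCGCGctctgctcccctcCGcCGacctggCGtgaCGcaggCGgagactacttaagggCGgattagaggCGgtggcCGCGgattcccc
Gjc3, chr5:137963099-137963348, minus strand, 3 CpG: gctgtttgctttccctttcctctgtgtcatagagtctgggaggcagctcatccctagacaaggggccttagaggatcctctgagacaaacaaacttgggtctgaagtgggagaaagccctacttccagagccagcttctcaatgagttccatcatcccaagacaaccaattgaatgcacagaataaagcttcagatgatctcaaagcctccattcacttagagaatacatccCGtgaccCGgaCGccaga
Cdh24, chr14:54641365-54641614, minus strand, 22 CpG: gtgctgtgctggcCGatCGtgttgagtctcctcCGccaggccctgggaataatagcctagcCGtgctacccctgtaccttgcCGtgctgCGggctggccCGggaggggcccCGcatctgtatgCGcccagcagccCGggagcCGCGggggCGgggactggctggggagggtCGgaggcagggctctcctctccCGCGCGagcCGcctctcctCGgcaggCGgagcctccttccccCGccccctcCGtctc
Cdh18, chr15:23036213-23036462, plus strand, 8 CpG: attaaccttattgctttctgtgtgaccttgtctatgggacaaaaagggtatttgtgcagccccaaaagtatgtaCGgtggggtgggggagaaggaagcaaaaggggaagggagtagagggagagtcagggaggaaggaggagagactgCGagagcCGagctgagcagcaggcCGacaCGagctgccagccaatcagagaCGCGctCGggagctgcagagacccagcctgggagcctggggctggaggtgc
Of the Cldn34 copies, the window of Cldn34c1 is rich in C and G, and that of Cldn34c3 has no CpG and is a run of mostly A and G. GENCODE places the Cldn34c3 and Cdh18 windows inside the gene, after an earlier annotated start, so RefSeq and GENCODE disagree on where these genes begin. Gjd2, the beta cell connexin, has the most CpG of any member counted.

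**Figure D4:**
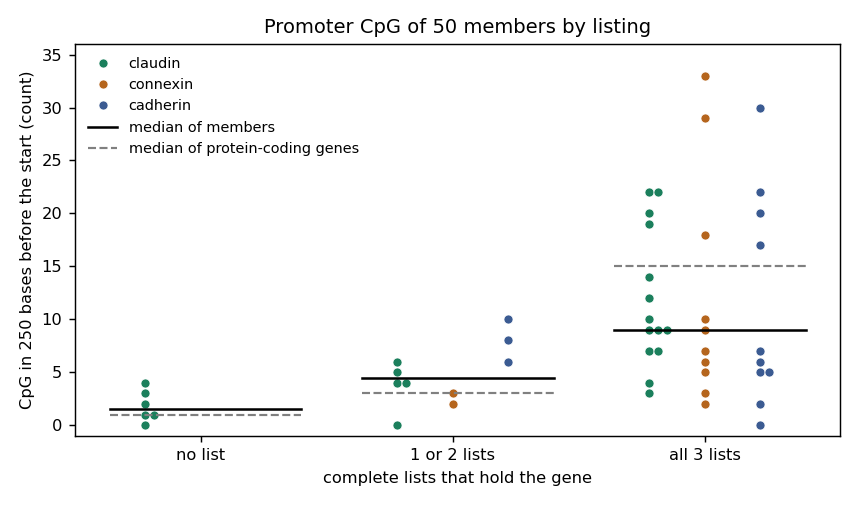
CpG count in the 250 bases before the start (y axis) of the 50 members with a promoter sequence, by the number of complete lists that hold the gene (x axis); each point is a gene, the solid line is the members' median and the dashed line that of protein-coding genes. No member above 10 CpG was missing from a list, and members in all 3 lists run from 0 to 33.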

How the data were processed

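Each deposited file holds 2 columns without a header, an Ensembl identifier and a symbol, in identifier order, and no measured value. The unit of these deposited files is therefore of the kind other: a gene is listed or it is not. Seurat and mm10 are named in the submitters' processing notes. What is not given in the sources used here is the aligner, the filters, the use of strand and how genes were chosen for a list. Members were found by symbol, and their identifiers matched GENCODE M21 (GRCm38, the assembly of mm10) for all 66. Coordinates, exons and overlaps come from it. Coding exons are those of the transcript with the longest coding sequence. Transcripts were cut into 60-base windows and matched exactly to transcripts of other genes on both strands. Shares are over genes in either list. The counting code, not the counts, was checked on simulated lists with known overlaps. Computation used Python 3.11.15 and matplotlib 3.10.9.

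The members, tissue classes and context lists were chosen with earlier results of these data known. Named are all members, and genes of the context lists that were not in every complete list, with a few others as examples, chosen after their values were seen. Some members and markers enter the counts and are not reported here by name. With 1 library in a group no test was run and no p-value is given. Alternatives were matching by identifier, removing repeat-name suffixes, keeping protein-coding members, adding near relatives and leaving out the Cldn34 genes.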

Additional observations from a re-analysis of the deposited data

How the results depend on the processing

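Keeping protein-coding members could not change a count, because all 76 annotated members are protein-coding. Matching by identifier and removing repeat-name suffixes also left each count of members that differed as it was. The counts were 12 between the E13.5 lists, 6 between the KO lists and 14 between E15.5 KO and E13.5 WT. With near relatives added these were 14, 7 and 15, and without the Cldn34 genes 9, 6 and 11. Leaving out the 8 members whose exons overlap another gene, a choice made after the data were seen, gave 10, 5 and 13. All 18 values stayed within 1.5 times the reported ones, those that could not change among them. In both comparisons with E13.5 WT more members were in that list only than in the KO list only. No paired analysis was possible because no group holds more than 1 library.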
